A study of Mus musculus with 96 samples.

Results

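The pyruvate dehydrogenase complex, the enzymes that switch it off and on and the carrier that brings it pyruvate were followed through 10 of the 56748 genes of the count table, taken by gene name with no measured value in the rule. The members are the pyruvate dehydrogenase kinases Pdk1, Pdk2, Pdk3 and Pdk4, the phosphatases Pdp1 and Pdp2, the E1 subunits Pdha1 and Pdhb, and the mitochondrial pyruvate carrier subunits Mpc1 and Mpc2. Bulk poly-A RNA-seq libraries were made from liver, skeletal muscle and cerebral cortex of mice on an ad libitum (AL) or intermittent fasting (IF) diet, which the study describes for male C57BL/6 mice as 16 hr without food each day over 4 months. One set holds mice 1 to 16, labelled male, with 8 AL mice (1 to 8) and 8 IF mice (9 to 16), and the other holds mice 25 to 40, labelled female, with 8 AL mice (25 to 32) and 8 IF mice (33 to 40). By the numbers in the library names each mouse gave all 3 tissues, and the mouse block used below rests on these numbers. AL and IF mice with the same replicate number are different animals. The methods of the study describe only males. These were killed in the morning, with the IF group at the end of its fasting window, and perfused with PBS. Their daily fast ran from the afternoon through the night to the morning, while AL mice could eat at all hours. The last fast, the months of the regimen and the hours of feeding therefore cannot be told apart. Mice 25 to 40 are not described in the methods, and their diet is known from the labels alone. Their labelled sex is matched by the counts of sex-linked genes given below. Their regimen, its length and how long they had been without food when killed are not stated. Set, labelled sex and any difference in batch or handling between the sets cannot be told apart either. The muscle that was taken is not stated.

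Pyruvate dehydrogenase sits in the mitochondrial matrix and turns pyruvate into acetyl-CoA, a step that mammals cannot reverse and that commits carbohydrate carbon to oxidation or to fatty acid synthesis. The kinases phosphorylate the E1 alpha subunit and switch the complex off, the phosphatases take the phosphate away again, and the carrier, a heterodimer of MPC1 and MPC2, moves pyruvate across the inner mitochondrial membrane. PDK4 is the kinase best known for rising with fasting in muscle and liver, where it spares glucose and pyruvate while fatty acids are burned. All values here are mRNA levels, and protein, phosphorylation and enzyme activity are not part of them.

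The 95 libraries used hold between 26097314 and 49838004 counts, so that 1 CPM (counts over the library total, scaled to 1e6) stands for at least 26 counts. The cortex library of AL mouse 1, labelled male, was left out of every main result before any comparison. It enters only the alternatives that are named as including it. This library holds 10219 counts of Xist, the X-inactivation RNA of females, and 0 counts of each of 4 Y-linked genes (Ddx3y, Kdm5d, Uty and Eif2s3y). The other 47 libraries of mice 1 to 16 hold 0 to 25 Xist counts and 2166 to 7206 counts of the Y-linked genes, and the 48 libraries of mice 25 to 40 hold 1407 to 56808 and 0 to 3. In the library left out, Pdk4 stood at 6.22 CPM and the other members between 6.18 CPM (Pdp2) and 154 CPM (Pdk2). Cortex comparisons of mice 1 to 16 thus rest on 7 AL and 8 IF mice.

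The tissue labels were checked against marker genes. The sum of 4 liver markers (Alb, Apoa1, Ttr and Tat) lay between 38958 and 95379 CPM in liver and at most at 5.19 CPM in muscle. In cortex the same sum reached up to 4270 CPM through Ttr, a gene that the choroid plexus also expresses. Sums of 4 muscle markers (Ckm, Acta1, Myh4 and Tnnt3) ran from 101953 to 136924 CPM in muscle and did not pass 7.05 CPM in liver or 28.96 CPM in cortex. The 4 cortex markers (Snap25, Slc17a7, Nrgn and Gad1) summed to 5384 to 8609 CPM in cortex, against at most 8.47 CPM in liver and 2.21 CPM in muscle. With diet in mice 1 to 16, Apoa1 fell by 0.48 in liver on the log2 scale, Ckm fell by 0.19 in muscle and the few Nrgn counts of liver rose by 1.15. By edgeR no other gene of these 3 lists passed in any tissue of either set, while DESeq2 also called 1 liver marker in muscle of mice 1 to 16, where edgeR tested only Alb (1.40, adjusted p = 0.0636).

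The first question is how IF differed from AL within each tissue of mice 1 to 16. In liver, 6 of the 10 members passed the test, where 44.6% of the 16204 genes tested did: Pdk4, Mpc2, Pdha1, Pdp2 and Pdhb rose, among 23.5% of all genes that rose, and Pdk2 fell, among 21.1% that fell. Muscle had 3 of 10 members passing beside 23% of 15025 genes, with Pdk4 and Pdp2 higher in IF (11.5% of all genes) and Mpc2 lower (11.6%). In cortex, edgeR called 0 of 10 members beside 7.21% of 18462 genes, 1 member (Pdk4) had an unadjusted p under 0.05, and DESeq2 called 0. The cortex count of 1332 genes went down to 638 without AL mouse 2 and up to 2060 without IF mouse 12, with 0 members in each of these fits. Pdk4 and Pdp2 are the members that rose in both liver and muscle, and Mpc2 moved in opposite directions in these tissues. With the erythrocyte marker sum as a covariate, the liver calls of Pdk2 (-0.22) and Pdhb (0.25) were lost. With the adipocyte marker sum as a covariate, the muscle call of Pdp2 (0.51) was lost. Both fits were added after seeing the data. The 2 marker sums were themselves higher in IF, so a call can be lost in these fits through a less precise diet term alone. The median log2 fold change of the members was 0.40 in liver, 0.16 in muscle and -0.05 in cortex, against 0.06, 0.01 and -0.00 over all genes tested. The samples are whole tissue, in which fewer cells of a type and less RNA per cell cannot be told apart.

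In mice 25 to 40, edgeR called no member in any tissue. The count was 0 of 9 in liver, where Pdk3 was too low to be tested and 0% of 15938 genes passed, with 0 members at an unadjusted p under 0.05 and 0 by DESeq2. It was 0 of 10 in muscle, where 0.00653% of 15308 genes passed, with Pdk2 and Mpc1 as the 2 members at an unadjusted p under 0.05 and 0 by DESeq2. In cortex it was 0 of 10 beside 0.0109% of 18403 genes, with 0 members at an unadjusted p under 0.05 and 0 by DESeq2. The members' medians were -0.06 in liver, -0.07 in muscle and -0.04 in cortex, against -0.01, -0.02 and 0.00 over all genes. The genes that did pass lie outside the members and are named after their values were seen: Rn18s-rs5 in muscle, and mt-Atp6 and Gm11263 in cortex. With each library left out in turn, the cortex count of these mice rose to 254 genes without AL mouse 26 and was between 0 and 2 otherwise, and the muscle count was 3 without AL mouse 27 and 2 without IF mouse 33; no member passed in any of these fits.

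The response itself was then compared between the sets, as the IF against AL log2 fold change of mice 25 to 40 minus that of mice 1 to 16. This difference passed for 5 of 10 members in liver, beside 23.7% of 17658 genes, for 2 of 10 in muscle, beside 14.2% of 16346 genes, and by edgeR for 0 of 10 in cortex, beside 2.03% of 19547 genes, with 0 members there at an unadjusted p under 0.05 and 0 by DESeq2. The members' median difference was -0.54 in liver and -0.21 in muscle, against -0.04 and -0.01 over all genes. In both of these tissues Pdk4 differed most between the sets.

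**Figure D1:**
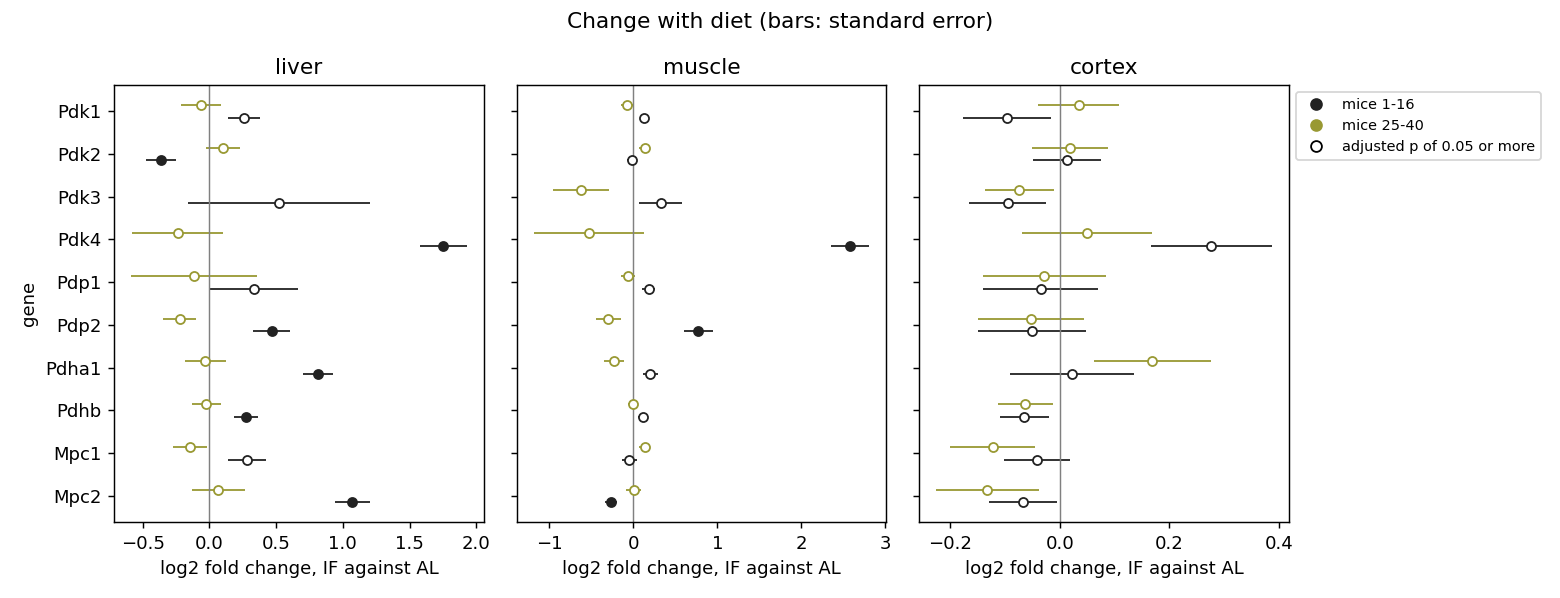
Log2 fold change of IF against AL (± SE) of each member in liver, muscle and cortex, for mice 1 to 16 in black and mice 25 to 40 in olive; filled points passed at an adjusted p under 0.05. Pdk4 in muscle (2.58) and liver (1.75) and Mpc2 in liver (1.07) of mice 1 to 16 stand farthest from 0 among the filled points.

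Pdk4, the kinase gene known for its fasting response, was low in the liver of AL mice 1 to 16, at 5.19 CPM in the lowest mouse, 8.67 at the median and 14.7 in the highest. IF mice of that set had 26.1, 33.1 and 40.7 CPM. All 8 IF mice thus lay above the highest AL mouse. The log2 fold change was 1.75 ± 0.18 (SE; edgeR quasi-likelihood test, adjusted p = 3.03e-08). The liver level of mice 25 to 40 was lower in both diets, with 1.19, 2.23 and 4.27 CPM in AL mice and 0.512, 1.83 and 4.06 CPM in IF mice. Those groups overlapped almost entirely, with 7 of the 8 IF mice inside the AL range, and the log2 fold change was -0.24 ± 0.34 (edgeR, adjusted p = 0.938), from -0.48 to -0.07 over 20 alternatives. The difference between the sets' responses was -1.95 ± 0.39 (edgeR, adjusted p = 0.000351).

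In muscle the same gene was far more abundant. AL mice 1 to 16 had 112 CPM at the lowest, 213 at the median and 330.4 at the highest, and IF mice had 776, 1386 and 1719 CPM. The diets did not overlap, and the lowest IF mouse stood above every AL mouse. Pdk4 rose by a log2 fold change of 2.58 ± 0.23 (edgeR, adjusted p = 1.99e-06). Muscle of mice 25 to 40 was spread much more widely in AL mice, from 15.8 CPM in mouse 27 and 37.5 in mouse 26 through a median of 207 to 915 CPM in mouse 28, while IF mice ran from 77.2 through 192 to 461 CPM. Every IF mouse of that set fell inside the AL range, and the log2 fold change was -0.53 ± 0.66 (edgeR, adjusted p = 0.805). Over the 20 alternatives, among them each library left out in turn, that value ran from -0.81 to -0.04 and never passed (adjusted p 0.647 to 0.988). The responses of the sets differed by -3.08 ± 0.71 (edgeR, adjusted p = 0.00372), and the cause of the wide spread among AL mice 25 to 40 was not tested. The adipocyte marker sums of these muscles were 366 CPM in mouse 27 and 659 CPM in mouse 26, the 2 highest of the AL group, and 65.6 CPM in mouse 28. Other AL mice went the other way: mouse 29 had a sum of 297 CPM with Pdk4 at 607 CPM. Mouse 32 had the lowest sum, 53.6 CPM, with Pdk4 at 147 CPM.

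Cortex carried little Pdk4 mRNA in either set. AL mice 1 to 16 had 5.37, 6.84 and 9.23 CPM (lowest, median, highest) and IF mice 7.67, 8.77 and 10.3 CPM, with 3 of 8 IF mice above the AL range. The log2 fold change of 0.28 ± 0.11 did not pass (edgeR, adjusted p = 0.128). Values of mice 25 to 40 were 4.90, 7.50 and 9.19 CPM in AL mice and 5.78, 7.38 and 10.1 CPM in mice labelled IF (log2 fold change 0.05 ± 0.12; edgeR, adjusted p = 0.889). The difference between the sets was -0.22 ± 0.16 (edgeR, adjusted p = 0.544).

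**Figure D2:**
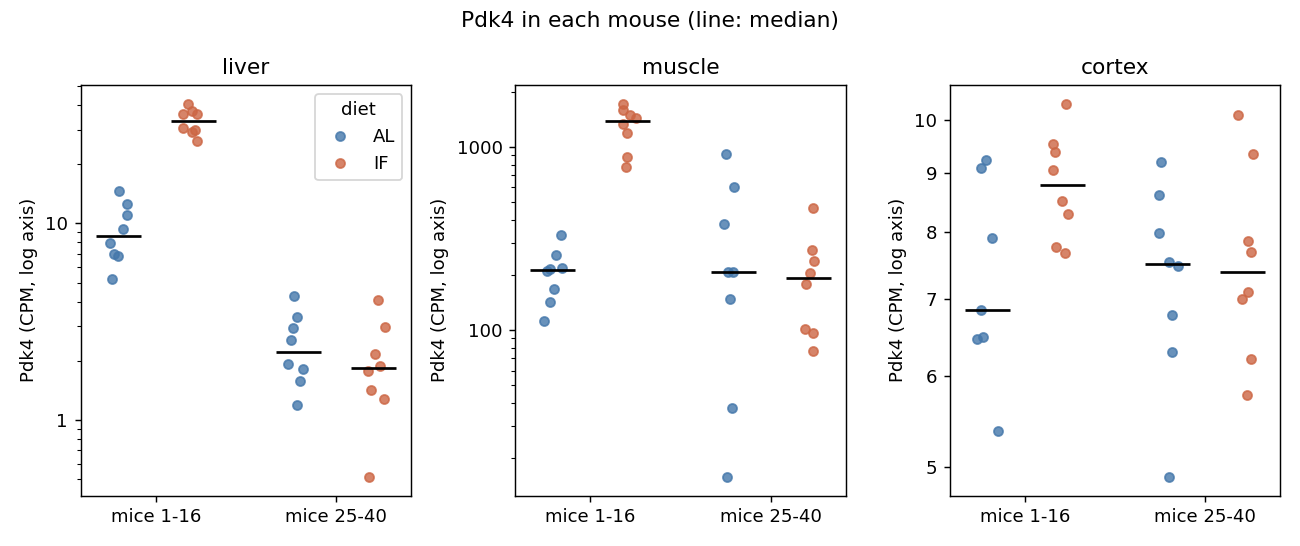
Pdk4 level in CPM on a log axis, 1 point per mouse with a line at the group median, for AL and IF mice of both sets in liver, muscle and cortex. In liver and muscle of mice 1 to 16 all 8 IF mice lie above the highest AL mouse (14.7 CPM in liver and 330.4 CPM in muscle), and the points of AL mice 25 to 40 in muscle run from 15.8 to 915 CPM.

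Tests of the difference between tissues within mice 1 to 16, with each mouse as a block, set these responses apart. For Pdk4 the response was larger in muscle than in liver by 0.86 ± 0.25 (edgeR, adjusted p = 0.00660), larger in muscle than in cortex by 2.404 ± 0.26 (edgeR, adjusted p = 4.46e-07), and in cortex it differed from liver by -1.54 ± 0.26 (edgeR, adjusted p = 2.54e-05). Over all members, 4 of 10 responses differed between muscle and liver, beside 31% of 21608 genes, 5 of 10 between cortex and liver, beside 26.7%, and 2 of 10 between muscle and cortex, beside 3.8%. In mice 25 to 40, edgeR called 0 of 10 in each of the 3 contrasts, with 0 members at an unadjusted p under 0.05, beside 0.0047% of 21292 genes for muscle against liver, 0% for cortex against liver and 0.0047% for muscle against cortex; DESeq2 was not run for these contrasts. The gene that passed for muscle against liver was Rn18s-rs5 and the one for muscle against cortex was Rpl19-ps11, both named after their values were seen.

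Pdk2, the most widely expressed of the kinases, fell in the liver of mice 1 to 16. AL mice had 60.9, 80.3 and 110.0 CPM and IF mice 54.2, 70.02 and 79.6 CPM, so the diets overlapped and 2 of 8 IF mice lay below the AL range. Its log2 fold change was -0.36 ± 0.11 (edgeR, adjusted p = 0.0126). The call held in 21 of 22 alternatives and was lost with the erythrocyte marker sum as a covariate, a fit added after seeing the data (-0.22; edgeR, adjusted p = 0.326, within 0.00421 to 0.326 over all alternatives). The liver groups of mice 25 to 40 had medians of 130 and 133 CPM with a log2 fold change of 0.10 ± 0.13 (edgeR, adjusted p = 0.931), and the responses of the sets differed by 0.50 ± 0.18 (edgeR, adjusted p = 0.0350). Muscle held the most Pdk2, between 637 and 825 CPM in all 32 mice, and its log2 fold changes of -0.02 ± 0.05 in mice 1 to 16 (edgeR, adjusted p = 0.872) and 0.14 ± 0.07 in mice 25 to 40 (edgeR, adjusted p = 0.459) did not pass. The response of Pdk2 in mice 1 to 16 differed from that of liver by 0.39 in muscle (edgeR, adjusted p = 0.00937) and by 0.43 in cortex (edgeR, adjusted p = 0.00628). Cortex values lay between 135 and 188 CPM over both sets and diets.

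Pdk1, the kinase that also phosphorylates a site of E1 alpha that the other kinases leave alone, did not pass in any tissue. In the liver of mice 1 to 16, AL mice had 25.5, 32.6 and 40.2 CPM and IF mice 33.9, 41.8 and 55.3 CPM, with 5 of 8 IF mice above the AL range. Its log2 fold change was 0.26 ± 0.12 (edgeR, adjusted p = 0.0769). Leaving out AL mouse 6 gave 0.33 (edgeR, adjusted p = 0.0258, within 0.0258 to 0.339 over all alternatives), the 1 of 22 alternatives in which it passed. Liver of mice 25 to 40 held 57.1 to 129 CPM, above the range of mice 1 to 16. In muscle of mice 1 to 16 the medians were 37.4 CPM in AL and 42.4 CPM in IF mice, with 6 of 8 IF mice above the AL range and a log2 fold change of 0.13 ± 0.06 (edgeR, adjusted p = 0.0977). Cortex values ran from 32.04 to 54.6 CPM.

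Pdk3, a kinase gene on the X chromosome, was a cortex gene among these tissues. Its counts were 0 to 32 per library in liver and 7 to 64 in muscle, against 639 to 933 in cortex, where the level was 18.5 to 25.9 CPM. At these depths a difference in liver was not detectable: the fitted log2 fold change of 0.52 in mice 1 to 16 had an SE of 0.68. In cortex the log2 fold changes were -0.10 ± 0.07 in mice 1 to 16 (edgeR, adjusted p = 0.445) and -0.07 ± 0.06 in mice 25 to 40 (edgeR, adjusted p = 0.645). With 5 of 8 IF mice below the AL range and 1 above it, the diets still overlapped in mice 1 to 16.

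Because gene lengths differ, levels of the kinases were compared with each other only per length, as CPM per kilobase of the gene length in the deposited table. On that scale Pdk2 made up most of the summed kinase mRNA of AL mice 1 to 16, with a mean share of 78.5% in liver, 78.0% in muscle and 74.2% in cortex. The share of Pdk4 in the summed per-length level was 8.23% ± 3.33 (± SD, here and below over 8 mice) with AL and 26.1% ± 4.22 with IF in liver of mice 1 to 16. In muscle of these mice it was 20.2% ± 5.59 with AL and 59.9% ± 7.58 with IF, while the mean share of Pdk2 went to 39.1%. The ranges of the Pdk4 share did not overlap between diets in either tissue, with a highest AL mouse of 15.02% against a lowest IF mouse of 20.5% in liver, and 29.4% against 48.5% in muscle. The summed per-length kinase level itself was 288 ± 16.9 with AL and 609.8 ± 89.7 with IF in muscle, and 32.9 ± 4.70 and 36.5 ± 2.99 in liver. In mice 25 to 40 the mean Pdk4 share was 1.31% in AL and 1.02% in IF liver, and 23.4% in AL and 18.3% in IF muscle. Pdk3 held 12.5% to 14.1% of the summed kinase level in the 4 cortex groups and less than 1% elsewhere. These shares are descriptions and were not tested. They rest on 1 deposited length per gene, which need not be the length of the transcripts expressed.

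**Figure D3:**
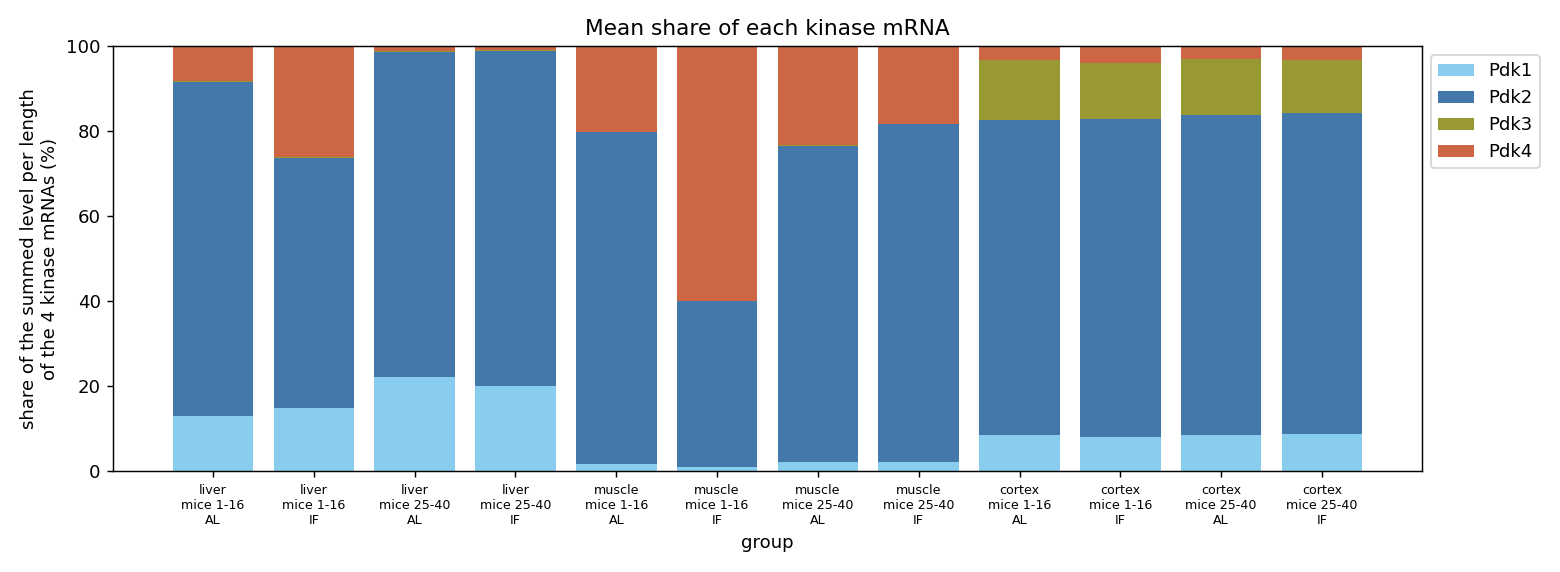
Mean share in percent of the summed per-length mRNA level of the 4 kinases that each kinase holds, as stacked bars for the 12 groups of tissue, set and diet. The Pdk4 part grows from 20.2% to 59.9% in muscle and from 8.23% to 26.1% in liver between AL and IF mice 1 to 16, and the Pdk3 part is visible only in cortex.

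Pdp2, the phosphatase isoform known for its response to insulin and feeding state, rose in liver and muscle of mice 1 to 16. In liver, AL mice had 14.5, 18.9 and 26.5 CPM and IF mice 23.0, 30.4 and 38.4 CPM, with 6 of 8 IF mice above the AL range. Pdp2 rose there by 0.47 ± 0.14 on the log2 scale (edgeR, adjusted p = 0.00748) and passed in 22 of 22 alternatives. In muscle the level was low, with 1.64, 2.88 and 4.00 CPM in AL and 3.73, 5.06 and 9.13 CPM in IF mice. There 7 of 8 IF mice stood above the AL range, and the highest of them was mouse 12. The muscle log2 fold change was 0.77 ± 0.17 (edgeR, adjusted p = 0.00229). It passed in 21 of 22 alternatives and was lost with the adipocyte marker sum as a covariate, a fit added after seeing the data (0.51; edgeR, adjusted p = 0.166, within 0.000156 to 0.166 over all alternatives).

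Mice 25 to 40 had Pdp2 medians of 29.9 CPM in AL and 24.0 CPM in IF liver, and of 5.75 and 4.98 CPM in muscle. The log2 fold changes were -0.22 ± 0.13 in liver (edgeR, adjusted p = 0.850) and -0.30 ± 0.15 in muscle (edgeR, adjusted p = 0.493), and neither passed. The responses of the sets differed by -0.66 ± 0.19 in liver (edgeR, adjusted p = 0.0101) and by -1.05 ± 0.23 in muscle (edgeR, adjusted p = 0.00231). In cortex, all mice lay between 4.38 and 7.81 CPM. The response in muscle of mice 1 to 16 was larger than in cortex by 0.77 ± 0.19 (edgeR, adjusted p = 0.0164).

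Pdp1, the calcium-stimulated phosphatase, was most abundant in cortex, at 54.0 to 178 CPM, and was close to absent from liver, with 1 to 77 counts per library. Its liver log2 fold change of 0.34 ± 0.33 in mice 1 to 16 (edgeR, adjusted p = 0.424) rests on these few counts. In muscle of that set, AL mice had 37.7, 41.2 and 44.4 CPM and IF mice 38.9, 51.0 and 56.9 CPM, and 6 of 8 IF mice stood above the AL range. The log2 fold change of 0.18 ± 0.08 did not pass (edgeR, adjusted p = 0.0942). It did pass in 2 of 22 alternatives. Without IF mouse 12 the value was 0.23 (edgeR, adjusted p = 0.0165, within 0.00877 to 0.187 over all alternatives). With the adipocyte marker sum as a covariate, a fit added after seeing the data, it was 0.40 (edgeR, adjusted p = 0.00877, within 0.00877 to 0.187). Cortex log2 fold changes were -0.03 ± 0.10 and -0.03 ± 0.11 in the 2 sets (edgeR, adjusted p = 0.883 and 0.937).

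Pdha1, the X-linked gene of the E1 alpha subunit that the kinases phosphorylate, separated the diets in the liver of mice 1 to 16. AL mice had 10.8, 13.8 and 16.8 CPM and IF mice 21.5, 24.5 and 29.1 CPM. All 8 IF mice lay above the highest AL mouse. Pdha1 rose by a log2 fold change of 0.81 ± 0.11 (edgeR, adjusted p = 2.36e-06). Medians of mice 25 to 40 were 18.8 CPM in AL and 17.4 CPM in IF mice, every IF mouse lay inside the AL range, and the log2 fold change was -0.03 ± 0.15 (edgeR, adjusted p = 0.983). The responses of the sets differed by -0.81 ± 0.19 (edgeR, adjusted p = 0.00172). The liver response of mice 1 to 16 was also larger than that of muscle (-0.57 ± 0.14 for muscle minus liver, adjusted p = 0.00196) and of cortex (-0.75 ± 0.15 for cortex minus liver, adjusted p = 0.000173).

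Muscle held more Pdha1, with medians of 152 CPM in AL and 194 CPM in IF mice 1 to 16. The log2 fold change of 0.20 ± 0.09 did not pass (edgeR, adjusted p = 0.108), but did without AL mouse 7, the highest AL mouse (0.25; edgeR, adjusted p = 0.0370, within 0.0370 to 0.211 over all alternatives). Muscle medians of mice 25 to 40 were 233 and 199 CPM with a log2 fold change of -0.23 ± 0.12 (edgeR, adjusted p = 0.503). The difference between the sets was -0.41 ± 0.16 (edgeR, adjusted p = 0.0720) and passed by DESeq2 alone of its 3 alternatives (-0.41, adjusted p = 0.0493, within 0.0493 to 0.152). Cortex values lay between 48.5 and 94.5 CPM, and neither set passed there.

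Pdhb encodes the beta subunit that pairs with E1 alpha. In the liver of mice 1 to 16, AL mice had 68.5, 76.3 and 108 CPM and IF mice 92.2, 106 and 112 CPM, with 4 of 8 IF mice above the AL range. It rose by a log2 fold change of 0.27 ± 0.09 (edgeR, adjusted p = 0.0159). This call was lost without IF mouse 11 (0.21; edgeR, adjusted p = 0.0841), without IF mouse 13 (0.24; edgeR, adjusted p = 0.0511), with no filter on low counts (0.24; edgeR, adjusted p = 0.0877) and with the erythrocyte marker sum as a covariate, a fit added after seeing the data (0.25; edgeR, adjusted p = 0.149). Over all 22 alternatives the adjusted p ranged from 0.00686 to 0.149 and 18 passed. Liver medians of mice 25 to 40 were 97.4 and 94.1 CPM, and the difference between the sets was -0.26 ± 0.14 (edgeR, adjusted p = 0.168). Muscle medians in mice 1 to 16 were 248 and 279.9 CPM with a log2 fold change of 0.11 ± 0.06 (edgeR, adjusted p = 0.194). In cortex of mice 1 to 16, 7 of 8 IF mice lay below the AL range of 128 to 141 CPM, at 119.8 CPM or more, yet the log2 fold change was only -0.06 ± 0.04 (edgeR, adjusted p = 0.401).

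Mpc2, the gene of a carrier subunit that works as a heterodimer with MPC1, rose in liver. AL mice 1 to 16 had 83.4, 113 and 144 CPM and IF mice 196, 253 and 305 CPM. The diets did not overlap. Mpc2 rose by a log2 fold change of 1.07 ± 0.13 (edgeR, adjusted p = 5.90e-07). Liver of mice 25 to 40 had medians of 266 CPM in AL and 236 CPM in IF mice, both close to the IF mice of the other set, with a log2 fold change of 0.07 ± 0.20 (edgeR, adjusted p = 0.973). The sets differed in their response by -0.97 ± 0.25 (edgeR, adjusted p = 0.00355).

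In muscle the direction of Mpc2 was the opposite. AL mice 1 to 16 had 289.8, 358 and 410.1 CPM and IF mice 282, 312 and 349 CPM, with 2 of 8 IF mice below the AL range, and Mpc2 fell by 0.27 ± 0.07 on the log2 scale (edgeR, adjusted p = 0.00698). With the adipocyte marker sum as a covariate, a fit added after seeing the data, the log2 fold change was -0.44. The response in muscle differed from that in liver by -1.28 ± 0.14 (edgeR, adjusted p = 8.11e-09), and that in cortex from liver by -1.13 ± 0.14 (edgeR, adjusted p = 1.94e-07). Muscle of mice 25 to 40 had medians of 267 and 255 CPM with a log2 fold change of 0.00 ± 0.09 (edgeR, adjusted p = 0.993). Cortex stood between 89.6 and 129 CPM, with log2 fold changes of -0.07 ± 0.06 and -0.13 ± 0.09 in the 2 sets that did not pass (edgeR, adjusted p = 0.554 and 0.579).

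Mpc1, the gene of the other carrier subunit, did not pass anywhere. In the liver of mice 1 to 16, AL mice had 9.66, 17.8 and 20.6 CPM and IF mice 14.5, 23.0 and 26.7 CPM, and 6 of 8 IF mice lay above the AL range. The log2 fold change was 0.28 ± 0.14 (edgeR, adjusted p = 0.112). It passed without IF mouse 10 (0.34; edgeR, adjusted p = 0.0494, within 0.0494 to 0.220 over all alternatives). Liver of mice 25 to 40 had medians of 40.6 CPM in AL and 35.4 CPM in IF mice. Muscle values ran from 46.7 to 85.4 CPM and cortex values from 26.2 to 42.9 CPM over both sets, with no log2 fold change past 0.14 in size.

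Several members also stood at different levels in the sets under the same AL diet. In liver the AL medians of mice 1 to 16 and of mice 25 to 40 were 32.6 and 92.2 CPM for Pdk1, 80.3 and 130 CPM for Pdk2, 17.8 and 40.6 CPM for Mpc1, 113 and 266 CPM for Mpc2 and 8.67 and 2.23 CPM for Pdk4. For Pdk1 the AL ranges of the sets did not overlap, with a highest value of 40.2 CPM in mice 1 to 16 and a lowest of 63.8 CPM in mice 25 to 40. Mpc1 and Pdk4 did not overlap either. Pdk2 did overlap, with a highest value of 110.0 CPM in mice 1 to 16 and a lowest of 100.5 CPM in mice 25 to 40. So did Mpc2, with 144 and 109 CPM. How many of all genes keep the sets apart in this way was not counted, so the separation is not shown to be particular to these members. These differences between sets were not tested, since labelled sex and batch cannot be told apart.

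The order of the members by level was read per length (CPM per kilobase) in AL mice 1 to 16. In liver the means ran from Pdk2 (25.9) and Pdhb (21.2) through Mpc2 (15.5), Mpc1 (8.20), Pdk1 (4.25), Pdha1 (3.57), Pdp2 (3.54) and Pdk4 (2.65) to Pdp1 (0.185) and Pdk3 (0.0995). Neighbours that differed by less than the larger of their SDs were Pdha1 and Pdp2, Pdp2 and Pdk4, and Pdp1 and Pdk3. In muscle the order was Pdk2 (224), Pdhb (65.3), Pdk4 (58.9), Mpc2 (48.8), Pdha1 (42.1), Mpc1 (27.8), Pdp1 (9.18), Pdk1 (4.79), Pdp2 (0.522) and Pdk3 (0.243), and neither Pdhb and Pdk4 nor Pdk4 and Mpc2 differed beyond the larger SD. In IF muscle of the same set the per-length mean of Pdk4 (370.7 ± 94.5, SD, n = 8) stood above that of Pdk2 (233 ± 17.2, SD, n = 8). Cortex ran Pdk2 (47.97), Pdhb (34.2), Pdp1 (29.6), Pdha1 (18.9), Mpc1 (15.6), Mpc2 (14.5), Pdk3 (9.08), Pdk1 (5.48), Pdk4 (2.09) and Pdp2 (1.05), and the pairs Pdhb and Pdp1, Pdha1 and Mpc1, and Mpc1 and Mpc2 lay within the larger SD. The E1 subunits are needed in equal numbers, yet per length the mean of Pdhb was above that of Pdha1 in each tissue. The deposited gene length need not be that of the transcripts expressed, so these orders are descriptions and not measured transcript ratios.

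Other genes around the complex were read from lists of gene names. Up to 6 passing genes per tissue with the largest changes are given with SE and adjusted p, and passing genes given with a log2 fold change alone are named after their values were seen. The other genes of the complex (Dlat for E2, Dld for E3, Pdhx for the E3 binding protein and Pdpr for a phosphatase regulator) gave 0 of 4 by edgeR in the liver of mice 1 to 16, with 0 at an unadjusted p under 0.05 and 0 by DESeq2, and a list median of 0.19 on the log2 scale. Muscle and cortex of that set gave the same 3 counts of 0, with medians of 0.02 and 0.01. Of the lipoylation genes, which make the lipoyl arm of E2, Lipt1 fell by 0.53 in liver (1 of 3, median 0.03), where 21.1% of all genes fell, and Lias rose by 0.24 in muscle (1 of 3, median 0.21), where 11.5% rose. In cortex edgeR called 0 of 3, with 0 unadjusted, 0 by DESeq2 and a median of -0.08. The medians of all genes tested, 0.06 in liver, 0.01 in muscle and -0.00 in cortex, stand beside each of these.

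Among 7 genes of the sister 2-oxoacid dehydrogenases and their regulators, Bckdha (0.92), Bckdhb (0.39) and Dlst (0.28) rose and Dbt (-0.34) fell in the liver of mice 1 to 16, with a list median of 0.22, beside 23.5% of all genes that rose and 21.1% that fell. In muscle of these mice Dbt (0.27) rose and Bckdha (-0.36) fell, with a median of 0.04, beside 11.5% and 11.6% of all genes, so both moved against their liver direction. Cortex had 0 of 7 by edgeR, with 3 at an unadjusted p under 0.05, 2 by DESeq2 and a median of 0.01. Bckdha and Bckdhb encode the E1 subunits and Dbt the E2 of the branched-chain complex, and Dlst the E2 of the 2-oxoglutarate complex.

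The list of other routes into and out of pyruvate had 6 genes up and 1 down of 13 in the liver of mice 1 to 16, beside 23.5% and 21.1% of all genes, with a median of 0.35. Ldha, the lactate dehydrogenase A gene, rose by 1.87 ± 0.17 (edgeR, adjusted p = 5.65e-09), Ldhb by 1.20 ± 0.35 (edgeR, adjusted p = 0.00750), and Pklr, the liver pyruvate kinase, fell by 1.46 ± 0.32 (edgeR, adjusted p = 0.00151). In muscle 4 of 12 tested genes rose and 1 fell, beside 11.5% and 11.6% of all genes, with a median of 0.20. The largest were Slc16a7, a monocarboxylate transporter gene (1.72 ± 0.31; edgeR, adjusted p = 0.000465), Gpt2, the mitochondrial alanine aminotransferase (0.61 ± 0.11; edgeR, adjusted p = 0.000324), and Pcx, pyruvate carboxylase (0.57 ± 0.16; edgeR, adjusted p = 0.0147), followed by Slc16a3 (-0.34) and Me1 (0.31). In cortex edgeR called 0 of 12, with 6 at an unadjusted p under 0.05, 1 by DESeq2 and a median of 0.08.

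Of 8 genes of transcription regulators known to act on Pdk4, 4 rose and 1 fell in the liver of mice 1 to 16 (median 0.35), beside 23.5% and 21.1% of all genes. Foxo1 rose by 1.57 ± 0.12 (edgeR, adjusted p = 2.17e-10) and Ppara by 1.24 ± 0.16 (edgeR, adjusted p = 8.67e-07), while Ppard fell by 1.67 ± 0.23 (edgeR, adjusted p = 1.15e-05); Ppargc1a (0.79) and Foxo3 (0.45) were the others that rose. Muscle had 5 up and 2 down of 8 (median 0.35), beside 11.5% and 11.6% of all genes, led by Foxo1 (0.87 ± 0.21; edgeR, adjusted p = 0.00806), Klf15 (0.77 ± 0.09; edgeR, adjusted p = 3.71e-06) and Ppargc1a (0.70 ± 0.12; edgeR, adjusted p = 0.000422), with Foxo3 (0.43) and Nr3c1 (0.27) the others up and Esrra (-0.51) and Ppard (-0.40) down. In cortex Klf15 alone of the 7 tested passed (0.50 ± 0.10; edgeR, adjusted p = 0.00704), beside 7.21% of all genes, with a median of 0.12.

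In mice 25 to 40, edgeR and DESeq2 both called 0 genes of each of these 5 lists in each tissue. At an unadjusted p under 0.05 stood 1 sister dehydrogenase gene in liver, 1 sister dehydrogenase gene and 5 pyruvate route genes in muscle, and 2 sister dehydrogenase genes and 1 pyruvate route gene in cortex, and the other lists had 0. The list medians there lay between -0.10 (pyruvate routes in liver) and 0.08 (lipoylation in muscle), beside -0.01 in liver, -0.02 in muscle and 0.00 in cortex over all genes.

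Markers of other cell types moved with the diet in both tissues in which members passed. In the liver of mice 1 to 16, 3 of 5 erythrocyte genes rose, Hbb-bs by 3.17, Hbb-bt by 2.67 and Hba-a1 by 1.70, and none of the 5 was at 0. Their summed level was 362, 569 and 956 CPM (lowest, median, highest) in AL and 667, 2070 and 6879 CPM in IF mice, with Hba-a1 the most abundant. IF mice 11, 12 and 15 had sums of 667, 702 and 837 CPM, inside the AL range, and their Pdk4 levels of 35.8, 29.1 and 36.1 CPM lay above every AL mouse. With the log2 sum as a covariate, an alternative added after seeing the data, 4190 genes (25.9%) passed in place of 7234 and 4 members did: Pdk4 (1.66), Mpc2 (1.12), Pdha1 (0.92) and Pdp2 (0.56). Pdhb (0.25; edgeR, adjusted p = 0.149) and Pdk2 (-0.22; edgeR, adjusted p = 0.326, within 0.00421 to 0.326 over all alternatives) did not pass in that fit, and over all alternatives the adjusted p of Pdhb ran from 0.00686 to 0.149. What part the blood cell RNA had in the results was not tested further. In the liver of mice 25 to 40, 0 of 5 erythrocyte genes passed by edgeR, with 0 at an unadjusted p under 0.05 and 0 by DESeq2, and sums of 115, 522 and 1113 CPM in AL and 261, 512 and 1031 CPM in IF mice.

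In muscle of mice 1 to 16, 3 of 4 adipocyte genes rose, Cfd by 2.84, Adipoq by 2.25 and Plin1 by 2.20, while Lep had a log2 fold change of -1.25 that did not pass, and none was at 0. Their sum was 26.7, 77.8 and 298 CPM in AL and 96.9, 629 and 1598 CPM in IF mice, with Cfd the most abundant gene. IF mouse 11 had a sum of 96.9 CPM, inside the AL range, with a Pdk4 level of 1581 CPM, and IF mouse 12 had the highest sum. With the log2 sum as a covariate, again added after seeing the data, 2981 genes (19.8%) passed in place of 3463 and 3 members did: Pdk4 (2.74), Mpc2 (-0.44) and Pdp1 (0.40; edgeR, adjusted p = 0.00877, within 0.00877 to 0.187). Pdp2 did not pass in that fit (0.51; edgeR, adjusted p = 0.166, within 0.000156 to 0.166 over all alternatives). The part that adipose tissue had in the muscle results was not tested further. In muscle of mice 25 to 40, 0 of 4 adipocyte genes passed by edgeR, with 0 at an unadjusted p under 0.05 and 0 by DESeq2, and sums of 53.6, 171 and 659 CPM in AL and 12.1, 158 and 424 CPM in IF mice.

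The remaining marker lists gave fewer calls. Slow and oxidative fibre genes (Myh7, Tnnt1, Myl2 and Myh2, the most abundant) had 0 of 4 passing by edgeR in muscle of mice 1 to 16, with 1 at an unadjusted p under 0.05 and 1 by DESeq2. All 4 were lower in IF (median -1.08 on the log2 scale), and their sum was 407, 1308 and 2725 CPM in AL and 95.2, 807 and 995 CPM in IF mice; none was at 0, and their part in the muscle results was not tested. Choroid plexus genes (Kl, Folr1, Kcne2 and Clic6) gave 0 of 4 by edgeR in cortex of either set, with 0 at an unadjusted p under 0.05 and a median of 0.53 in mice 1 to 16, 4 and 2.33 in mice 25 to 40, and 0 by DESeq2 in both. Their summed level went as high as 62.0 CPM in AL and 107 CPM in IF mice 1 to 16, and 8.12 and 116 CPM in mice 25 to 40. The median sums were lower in IF, with 6.74 CPM in AL and 5.44 CPM in IF mice 1 to 16, and 3.89 and 3.30 CPM in mice 25 to 40. In the latter set IF mice 36 and 34 had 116 and 52.1 CPM, and the next highest IF mouse, 35, had 6.04 CPM. Liver of mice 1 to 16 had counts enough to test only 1 adipocyte gene, Cfd, which fell by 4.70, with a list sum of 11.4 to 32.2 CPM in AL and 0.546 to 1.88 CPM in IF mice. Erythrocyte genes in muscle and cortex of mice 1 to 16 had 0 of 5 by edgeR, 0 unadjusted and 0 by DESeq2.

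Partner subunits were compared across mice after each group's mean was taken off the log2 CPM, in 6 relations of 2 pairs in 3 tissues. In muscle, Pdha1 and Pdhb varied together (n = 32, Pearson's r = 0.532, permutation p = 0.00313, adjusted p = 0.0188; Spearman's rho = 0.577, permutation p = 0.00123, adjusted p = 0.00738). The r was 0.606 within mice 1 to 16, 0.489 within mice 25 to 40 and 0.586 without the 2 libraries farthest from the median. It was not set beside the r of other gene pairs in muscle, so it is not shown to be particular to partner subunits. In liver the same pair had an r of 0.237 (n = 32, permutation p = 0.248, adjusted p = 0.372) and in cortex -0.320 (n = 31, permutation p = 0.114, adjusted p = 0.228). Within mice 1 to 16 and mice 25 to 40 its r was -0.0927 and 0.362 in liver, and -0.367 and -0.316 in cortex. Without the 2 libraries farthest from the median it was 0.290 in liver and -0.107 in cortex. Mpc1 and Mpc2 had an r of 0.330 in liver (n = 32, permutation p = 0.0997, adjusted p = 0.228), with -0.124 within mice 1 to 16 and 0.670 within mice 25 to 40, -0.0106 in muscle (n = 32, permutation p = 0.950, adjusted p = 0.950) and 0.0966 in cortex (n = 31, permutation p = 0.663, adjusted p = 0.796). Spearman's rho of these 5 relations lay between -0.303 and 0.356, with adjusted permutation p between 0.170 and 0.973.

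The genes whose levels followed Pdk4 most closely across mice were found the same way, as a description without a test and over libraries that share a group's mean. In muscle, over 32 libraries and 12474 genes compared, they were Tacc2 (r = 0.816), Slc25a34 (0.813), Plin5 (0.805), Mlycd (0.802) and Ucp3 (0.797), with Spearman's rho from 0.620 to 0.715 and r from 0.641 to 0.763 without the 2 libraries farthest out. Within mice 1 to 16 their r was 0.791, 0.575, 0.454, 0.535 and 0.649 in that order, and within mice 25 to 40 it was 0.820, 0.878, 0.876, 0.834 and 0.844. In liver, over 32 libraries and 13412 genes, they were Bloc1s5 (0.706), Aven (0.694), Lect2 (0.688), Tmem134 (0.676) and Rcan3 (0.665), of which Rcan3 had an r of 0.111 within mice 1 to 16 and 0.816 within mice 25 to 40, and the others 0.620 to 0.763 and 0.678 to 0.709. In cortex, over 31 libraries and 15402 genes, they were Fn1 (0.736), Tjp1 (0.717), Zfp326 (0.716), Pkd2 (0.710) and Slc26a2 (0.710), with an r of 0.571 to 0.852 within mice 1 to 16 and 0.614 to 0.821 within mice 25 to 40. No gene was named in more than 1 tissue.

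The members lie on 9 chromosomes of GRCm39, at the spans that the deposited table gives. The kinase genes are Pdk1 (ENSMUSG00000006494, chr2:71703568-71734202, plus strand), Pdk2 (ENSMUSG00000038967, chr11:94917084-94932180, minus), Pdk3 (ENSMUSG00000035232, chrX:92808213-92875807, minus) and Pdk4 (ENSMUSG00000019577, chr6:5483351-5496309, minus). The phosphatase genes are Pdp1 (ENSMUSG00000049225, chr4:11958184-11966452, minus) and Pdp2 (ENSMUSG00000048371, chr8:105318083-105325658, plus). The E1 genes are Pdha1 (ENSMUSG00000031299, chrX:158905205-158921409, minus) and Pdhb (ENSMUSG00000021748, chr14:14296748-14303777, plus), and the carrier genes Mpc1 (ENSMUSG00000023861, chr17:8501736-8516493, plus) and Mpc2 (ENSMUSG00000026568, chr1:165288206-165308783, plus). Pdk1, Pdk3, Pdk4 and Pdp1 overlap no other annotated gene. Antisense genes overlap Pdk2 (Gm11513 and Gm53644), Pdp2 (Gm64135), Pdha1 (Map3k15), Pdhb (Pxk), Mpc1 (Gm64545 and 4930506C21Rik) and Mpc2 (Dcaf6), and Gm37860 overlaps Mpc2 on its own strand. The libraries are directional, but whether the counting used strand is not stated, so the counts of these 6 members are uncertain by the reads they may share.

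Pdk4 and Pdp2 each rose in liver and in muscle of mice 1 to 16, Pdp2 in muscle not with the adipocyte covariate (0.51; edgeR, adjusted p = 0.166, within 0.000156 to 0.166 over all alternatives), and the bases before their starts are shown for that reason. No test links the 2 genes. The sequences are from RefSeq (promoter table of build GRCm38.p6), were placed by an exact match to GRCm39 and are given without the bases up to the outermost exon of the gene in the GRCm39 reference annotation, which for both genes reaches beyond the span of the deposited table. The 250 bases before the start were searched on both strands for the letters GTAAACA (FoxO), AGGTCA (nuclear receptor half-site), TGTTCT (glucocorticoid receptor half-site) and CACGTG (E-box), which 3.17%, 14.02%, 16.1% and 6.02% of all 32851 windows hold. The Pdk4 window (chr6:5496340-5496528, minus strand, 189 bases) holds none of them, which says only that these letters are not in it. In the Pdp2 window (chr8:105317854-105318051, plus strand, 198 bases, over the antisense gene Gm64135) the E-box letters, in capitals, begin at position -219 as counted from the RefSeq start, which lies past the end of the bases printed.
Pdk4: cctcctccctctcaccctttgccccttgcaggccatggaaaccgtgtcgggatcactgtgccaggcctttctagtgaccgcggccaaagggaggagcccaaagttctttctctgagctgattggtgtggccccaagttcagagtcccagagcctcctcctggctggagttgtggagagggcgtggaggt
Pdp2: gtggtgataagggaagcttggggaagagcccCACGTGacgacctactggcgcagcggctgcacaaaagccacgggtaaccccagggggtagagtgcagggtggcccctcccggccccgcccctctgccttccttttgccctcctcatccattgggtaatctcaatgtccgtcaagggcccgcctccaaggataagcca
Of the 10 members, 9 had a window, 12 windows in all. Elsewhere the letters were found in Pdk1 (TGTTCT at -153 and -138 of its second window), Pdk2 (CACGTG at -126) and Mpc1 (AGGTCA on the other strand at -244 of its second window). A match is a description of the letters and no sign of a bound factor.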

How the data were processed

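Raw counts per gene were used as deposited by the authors, who per the submitters' notes called bases with CASAVA and aligned reads to mm39 with HISAT2. The strand setting of the counting is not stated. Of 96 libraries, 95 were used for the main results and the cortex library of AL mouse 1 was left out because its sex genes contradict its label. Library totals ran from 26097314 to 49838004 counts. CPM is counts over the library total, and per-length levels divide CPM by the deposited gene length in kilobases.

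Genes were tested in R 4.3.3 with edgeR 4.0.16 (quasi-likelihood F test, robust, TMM, filterByExpr with a minimum count of 10 and a minimum total of 15), and adjusted p is Benjamini-Hochberg over all genes tested, with 0.05 as the threshold. SE is the size of the log2 fold change over the square root of F. TMM factors of IF lay above those of AL by 0.10 in liver and 0.07 in muscle of mice 1 to 16 (log2), so fold changes there lie below plain CPM ratios. Diet was tested per tissue and set, then as its difference between sets and, with the mouse as a block, between tissues. Alternatives were DESeq2 1.42.0 (Wald test), RLE size factors, no filter, a replicate block, no mouse block, the left-out library included, mice 2 and 10 left out, each library left out in turn, and, added after seeing the data, a marker sum as covariate. Partner subunits used log2 CPM with a prior count of 2, group means removed, and 100000 permutations, adjusted over 6 relations.

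The 10 members and the lists (complex, lipoylation, sister dehydrogenases, pyruvate routes, Pdk4 regulators, and markers of tissue, adipocytes, erythrocytes, slow fibres and choroid plexus) were taken by gene name and chosen with earlier results of these data known. Named list genes are up to 6 per tissue with the largest size of log2 fold change among those passing in at least 1 diet comparison. Of 56748 gene IDs, 56017 matched the GRCm39 annotation. The test was tested on simulated data in which 200 genes were changed in each comparison. There 2-fold changes were recovered for 66%, 78% and 76% of changed genes in liver, muscle and cortex of mice 1 to 16 and 58%, 77% and 79% in mice 25 to 40. For 1.5-fold changes the shares were 20%, 65% and 64% and 19%, 52% and 72%. With few changed genes the adjusted p is stricter than where many pass, as the 7234 genes in liver of mice 1 to 16. The shares are thus not the sensitivity of the real fits. Figures were drawn in Python 3.11.15 with matplotlib 3.10.9.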

Additional observations from a re-analysis of the deposited data

Results flagged for a closer look

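In 7 of 120 groups, 1 library lay far from the others of its group by Dixon's ratio, where chance marks about 1 in 20 groups. Above the rest lay Pdk1 in liver of IF mouse 11 (55.3 CPM, next 43.3), Pdk3 in liver of AL mouse 30 (0.771 CPM, next 0.315), Pdp2 in muscle of IF mouse 12 (9.13 CPM, next 5.91) and Mpc1 in muscle of IF mouse 12 (85.4 CPM, next 59.9). Below the rest lay Pdk2 in muscle of IF mouse 40 (637 CPM, next 743), Pdp1 in cortex of IF mouse 36 (54.0 CPM, next 95.2) and Mpc1 in liver of AL mouse 6 (9.66 CPM, next 16.0). IF mouse 12 also had the highest adipocyte marker sum in muscle, and IF mouse 36 the highest choroid plexus marker sum in cortex (116 CPM, group median 3.30); whether these bear on their levels of Pdp2, Mpc1 and Pdp1 was not tested.

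In 18 of 90 tests, the log2 fold change of IF against AL differed between groups. The share of all genes that differed in these 9 contrasts ran from 0% to 31%. Between the sets (mice 25 to 40 minus mice 1 to 16) the differences in liver were -1.95 for Pdk4, -0.97 for Mpc2, -0.81 for Pdha1, -0.66 for Pdp2 and 0.50 for Pdk2, and in muscle -3.08 for Pdk4 and -1.05 for Pdp2. Within mice 1 to 16, muscle minus liver gave 0.86 for Pdk4, 0.39 for Pdk2, -1.28 for Mpc2 and -0.57 for Pdha1. Cortex minus liver gave -1.54 for Pdk4, -1.13 for Mpc2, -0.75 for Pdha1, -0.30 for Pdhb and 0.43 for Pdk2, and muscle minus cortex gave 2.404 for Pdk4 and 0.77 for Pdp2. Labelled sex and batch cannot be told apart in the differences between sets.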

How the results depend on the processing

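In mice 1 to 16, Pdk4 passed in 22 of 22 alternatives in liver (log2 fold change 1.66 to 1.87) and muscle (2.49 to 2.78), as did Mpc2, Pdha1 and Pdp2 in liver and Mpc2 in muscle; Pdp2 in muscle and Pdk2 in liver passed in 21 and Pdhb in liver in 18. Beyond the changes of call given with each gene, the difference of Pdp2 between cortex and liver passed with the left-out library included (-0.53, adjusted p = 0.0370, within 0.0370 to 0.0851). With each library left out, 5 to 7 members beside 6842 to 7219 genes were called in liver and 3 to 4 beside 2933 to 3740 in muscle of mice 1 to 16, and 0 in the other 4 diet comparisons. Numbers of genes called moved by more than 1.5 times as follows, and the cause was not tested. Liver of mice 1 to 16 had 4190 with the erythrocyte covariate. Cortex of mice 1 to 16 had 2259 by DESeq2, 382 with the replicate block, 498 without mice 2 and 10 and 294 with the left-out library included, and without a single library 638 (AL mouse 2), 766 (AL 3), 771 (AL 5), 877 (IF 11), 2060 (IF 12), 866 (IF 13) and 823 (IF 14). In mice 25 to 40, DESeq2 called 6 genes in liver, 91 in muscle and 73 in cortex, muscle had 5 with no filter, 3 without AL mouse 27 and 2 without IF mouse 33, and cortex had 0 with the replicate block, 254 without AL mouse 26, 0 in 11 single-library fits and 1 in 3. The set difference in cortex had 706 by DESeq2, 220 with no filter and 81 with the left-out library included. Without the mouse block, mice 25 to 40 had 13 for muscle against liver and 12 for cortex against liver, and RLE gave 2 for muscle against liver. The replicate block was an alternative only. Liver and muscle of mice 1 to 16 had 6 and 3 members called with it beside 43.8% and 20.9% of all genes. AL and IF libraries of the same replicate number correlated above 0.1 in some pairs. These were 1, 1 and 1 pairs of liver, muscle and cortex in mice 1 to 16, and 1, 4 and 2 pairs in mice 25 to 40. The lowest r was -0.262 and the highest 0.457, both in muscle of mice 25 to 40. Direction reversed only for changes that did not pass, and the cause was not tested: in muscle of mice 25 to 40 Pdhb by RLE (0.0105), DESeq2 (0.0105), no filter (0.0099) and replicate block (0.0026); with the left-out library included Pdp1 in cortex (0.0110); for the set difference in cortex Pdp1 with that library (-0.0392), Pdp2 by RLE (-0.0056) and DESeq2 (-0.0068), and Pdhb by RLE (-0.0020), DESeq2 (-0.0019) and with that library (-0.0030); for muscle against cortex Mpc1 without mouse block (0.0098) and with that library (0.0315); and in mice 25 to 40 Pdk3 for cortex against liver by RLE (-0.0003) and Pdp1 for muscle against cortex without mouse block (-0.0254). With single libraries left out, values on both sides of 0 were found in liver of mice 25 to 40 for Pdk1 (-0.1263 to 0.0195), Pdp1 (-0.2839 to 0.0614), Pdha1 (-0.1144 to 0.0561), Pdhb (-0.0651 to 0.0281) and Mpc2 (-0.0457 to 0.1349), in muscle for Pdk2 of mice 1 to 16 (-0.0291 to 0.0115) and for Pdhb (-0.0165 to 0.0350) and Mpc2 (-0.0473 to 0.0449) of mice 25 to 40, in cortex of mice 1 to 16 for Pdk2 (-0.0136 to 0.0425), Pdp1 (-0.0749 to 0.0410), Pdha1 (-0.0460 to 0.0980) and Mpc1 (-0.0646 to 0.0032), and in cortex of mice 25 to 40 for Pdk2 (-0.0206 to 0.0514), Pdk4 (-0.0151 to 0.0991) and Pdp1 (-0.0639 to 0.0628). The 12 alternative partner subunit relations kept their side of the threshold. Depth limits Pdk3 and Pdp1 in liver, which had at most 32 and 77 counts.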
